A study of Homo sapiens with 8 samples.

Results

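The myeloid granule genes MPO, ELANE, AZU1, PRTN3, CTSG, LYZ, MS4A3, RNASE2, CFD and SRGN were chosen by name and make up 10 of the 15380 genes with a read. Each gene is represented by the 3′ UTR segment with the most reads over all libraries. The cells were THP-1, a human line from an acute monocytic leukaemia, and SLAM-seq was used to follow RNA made while 4-thiouridine (4sU) was in the medium. Alkylated 4sU is read as a T-to-C change, and reads with such changes, which the authors call nascent, are called labelled reads here. Labelled cells received 30 μM 4sU for 12 h with fresh medium every 3 h, were washed in cold buffer, and were placed in 3 mM uridine. They were harvested at 0 min, 20 min, 40 min, 1 h, 2 h, 8 h and 12 h of this chase. The control was THP-1 without 4sU; it carries the same protocol text, so the labels leave it unclear whether those cells went through the medium changes, the washes or the uridine.

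Each of the 8 conditions had 1 library, so conditions were not tested against each other. The p-values test for a slope over hours, with the scatter of the 7 chase libraries around a straight line as the error. The labels do not say whether the times came from separate cultures. Chase libraries held 8301034 to 11224017 gene reads and the library without 4sU 2916044. Summed over genes, labelled reads made up 5.53% at 12 h and 30.6% at 0 h, against 0.0121% without 4sU. All 12 monocyte markers were detected. Of 7 markers for contents of late neutrophil granules, LTF, MMP8, CEACAM8, OLFM4 and CRISP3 had no read in any chase library. The other markers of that list were scarce, with a mean of 6.57 reads per chase library for CAMP and 0.143 for LCN2.

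Granules of promyelocytes are filled in order as the cell matures. Primary (azurophil) granules come first and hold myeloperoxidase, lysozyme and a family of serine proteases, which are bound to the proteoglycan serglycin and activated by removal of a short propeptide. In the human genome AZU1, PRTN3, ELANE and CFD lie side by side. In the files (hg19) their measured 3′ UTR segments all lie on the plus strand of chromosome 19 and begin at 831878 for AZU1, 847970 for PRTN3, 856165 for ELANE and 863239 for CFD, a span of 31361 bases. The segments of the other genes begin at 25042762 of chromosome 14 for CTSG (minus strand), 21424417 of chromosome 14 for RNASE2 (plus), 69747000 of chromosome 12 for LYZ (plus), 59837707 of chromosome 11 for MS4A3 (plus), 70863877 of chromosome 10 for SRGN (plus) and 56347217 of chromosome 17 for MPO (minus). Promoter sequences of 6 of the 10 genes were at hand from RefSeq (GRCh38.p14, 250 bases before to 50 bases after the start). Those of AZU1, PRTN3, CTSG and CFD, all of the serine protease family, are printed because CFD, a neighbour of AZU1 and PRTN3, was the granule gene at least 2-fold lower at 0 h than without 4sU. Capitals mark matches on either strand to GAGGAA (a PU.1 core), TTNNGNAA (C/EBP) and AACNG (a MYB core), 3 factors known to drive granule genes.
AZU1 (chromosome 19, 827587 to 827886, plus): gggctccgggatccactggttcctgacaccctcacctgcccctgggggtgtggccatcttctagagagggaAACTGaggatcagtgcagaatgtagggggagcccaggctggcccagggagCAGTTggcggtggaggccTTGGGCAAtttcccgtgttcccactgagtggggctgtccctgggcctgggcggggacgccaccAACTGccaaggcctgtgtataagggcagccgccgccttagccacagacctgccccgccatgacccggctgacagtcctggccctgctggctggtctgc
PRTN3 (chromosome 19, 840749 to 841048, plus): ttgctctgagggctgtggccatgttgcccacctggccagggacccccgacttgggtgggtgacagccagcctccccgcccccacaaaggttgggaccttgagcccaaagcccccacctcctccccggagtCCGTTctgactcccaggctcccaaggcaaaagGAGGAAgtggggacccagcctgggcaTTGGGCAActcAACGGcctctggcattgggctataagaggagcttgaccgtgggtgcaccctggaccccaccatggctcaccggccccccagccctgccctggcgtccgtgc
CTSG (chromosome 14, 24576201 to 24576500, minus): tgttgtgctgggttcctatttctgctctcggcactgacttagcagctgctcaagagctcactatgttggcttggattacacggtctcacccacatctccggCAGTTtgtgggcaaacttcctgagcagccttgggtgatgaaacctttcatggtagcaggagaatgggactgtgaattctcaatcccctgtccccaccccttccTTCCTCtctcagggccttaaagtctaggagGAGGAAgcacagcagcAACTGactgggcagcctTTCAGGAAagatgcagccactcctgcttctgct
CFD (chromosome 19, 859414 to 859713, plus): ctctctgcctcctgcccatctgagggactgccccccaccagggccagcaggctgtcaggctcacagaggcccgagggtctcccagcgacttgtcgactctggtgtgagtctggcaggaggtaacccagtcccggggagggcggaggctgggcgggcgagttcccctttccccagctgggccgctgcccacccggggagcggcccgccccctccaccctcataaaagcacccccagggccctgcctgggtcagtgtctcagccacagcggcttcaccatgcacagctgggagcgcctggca

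The window of AZU1 held 1 C/EBP and 3 MYB matches, that of PRTN3 1 PU.1, 1 C/EBP and 2 MYB matches, and that of CTSG 2 PU.1, 1 C/EBP and 2 MYB matches. No base of these windows lay in matches to more than 1 motif, and the letters of the 3 motifs do not occur in the CFD window. Among 27305 promoter windows of the same length, 27.6% held the PU.1 core, 37.3% the C/EBP letters and 77.2% the MYB core, so a match is a description of the sequence.

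During the chase the total level of the granule genes fell relative to the other genes of a library. The Drosophila S2 spike-in was not used, so no absolute amounts of RNA are given. In edgeR's quasi-likelihood fit of total counts against hours, with Benjamini-Hochberg adjustment over 10643 genes, 10 of 10 granule genes were called lower, where 23.9% of all genes were called lower and 27.4% higher. All 10 passed the filter of a mean of at least 20 reads. The median change over 12 h was -1.32 on the log2 scale for the 10 genes, with a range of -2.51 to -0.52, against 0.02 for all genes tested. With plain library totals in place of TMM factors the same 10 of 10 were called lower, where 1797 of 10643 genes were. The median of all genes was then 0.18, and 68.0% rather than 53.4% of all calls were higher. In bulk RNA, fewer cells that express a gene and less RNA per cell cannot be told apart.

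**Figure D1:**
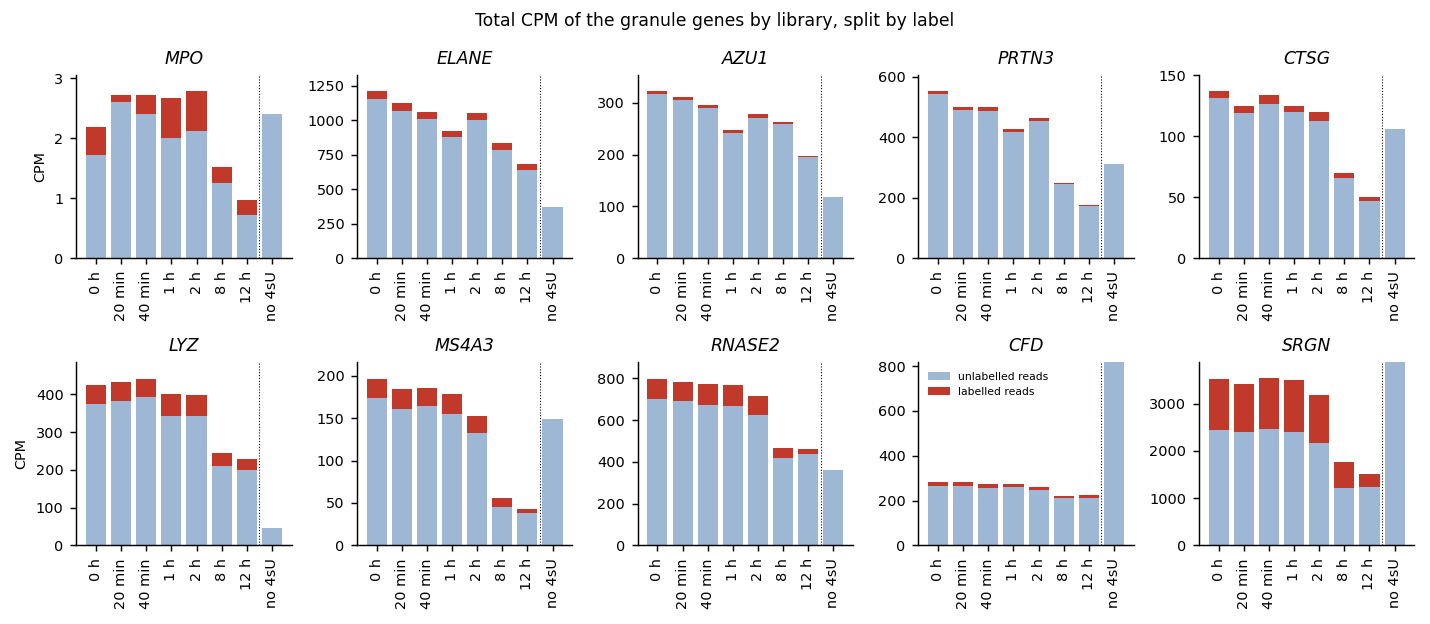
Bars give the total CPM (reads scaled to the gene reads of a library) of each granule gene in each library, split into unlabelled and labelled reads; chase times are spaced evenly and not to scale, and the library without 4sU stands on the right. MS4A3 stood at 43.4 CPM at 12 h and 197 CPM at 0 h, and CFD and SRGN were highest without 4sU.

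Among the serine proteases, ELANE (neutrophil elastase) was the most abundant. Its total level was 1211, 1124, 1062, 924, 1052, 834 and 680 CPM at 0, 20 and 40 min and 1, 2, 8 and 12 h. The values at 8 and 12 h lay below all 5 earlier ones, and the fitted change was -0.84 ± 0.10 log2 over 12 h (SE, edgeR adjusted p = 4.28e-05). PRTN3 (proteinase 3, the target of autoantibodies in granulomatosis with polyangiitis) had 553, 499, 501, 426, 464, 250 and 175 CPM at the same times. It was lowest at 12 h and next lowest at 8 h, with a change of -1.74 ± 0.10 log2 (adjusted p = 8.51e-07, edgeR). CTSG, which encodes the chymotrypsin-like cathepsin G, had 137, 125, 134, 125, 120, 69.7 and 49.8 CPM. Its first 5 libraries were level and the last 2 far below them, a change of -1.61 ± 0.10 log2 (adjusted p = 9.82e-07, edgeR). AZU1 encodes azurocidin, an antimicrobial relative of elastase without protease activity. It had 322, 311, 296, 247, 278, 263 and 198 CPM, so that 8 h overlapped the earlier times and 12 h did not. The change was -0.67 ± 0.11 log2 (adjusted p = 0.000463, edgeR). CFD encodes complement factor D, the serine protease that cleaves factor B of the alternative pathway. At 282, 281, 272, 273, 262, 221 and 223 CPM it had the smallest change of the 10 genes, -0.52 ± 0.08 log2 (adjusted p = 0.000355, edgeR).

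The other granule contents fell as well. LYZ (lysozyme, which cuts bacterial cell walls) had 424, 432, 442, 402, 398, 245 and 230 CPM through the chase. The late libraries did not overlap the early ones, and the change was -1.16 ± 0.11 log2 (adjusted p = 1.12e-05, edgeR). RNASE2 encodes the eosinophil-derived neurotoxin, a secreted ribonuclease with antiviral activity, and had 800, 782, 774, 769, 715, 469 and 464 CPM. It was level between 8 and 12 h, at a change of -1.03 ± 0.10 log2 over the whole chase (adjusted p = 1.97e-05, edgeR). SRGN encodes serglycin, the proteoglycan core on which granule proteases are stored, and was the most abundant of the 10 genes, at place 22 of all genes by CPM at 0 h. It had 3525, 3423, 3541, 3496, 3175, 1770 and 1517 CPM and a change of -1.48 ± 0.10 log2 (adjusted p = 1.71e-06, edgeR). MS4A3, a membrane protein of granulocyte and monocyte progenitors, had 197, 184, 185, 178, 153, 55.5 and 43.4 CPM. This was the steepest fall of the 10 genes, -2.51 ± 0.15 log2 (adjusted p = 9.82e-07, edgeR). MPO, whose enzyme makes hypochlorous acid from hydrogen peroxide, was scarcely measured, with 19, 24, 26, 24, 25, 17 and 8 reads. Its change of -1.54 ± 0.39 log2 (adjusted p = 0.0064, edgeR) was not called without the 12 h library (adjusted p = 0.0862). With the 0 to 2 h libraries alone, 3 of the 10 genes were called lower (MS4A3, RNASE2 and SRGN). Of all genes 112 were then called lower and 439 higher, against 2544 and 2919 of 10643 with all 7 libraries. The other 7 granule genes were called only with later libraries in the fit.

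A small share of the reads of most granule genes was labelled at the end of the 12 h pulse. At 0 h 1.87% of PRTN3 reads, 1.92% of AZU1, 4.10% of CTSG, 4.87% of ELANE and 5.34% of CFD reads were labelled, against 44.5% for the median of 9402 genes tested. At most 0.893% of those genes had a lower share than any of these 5. LYZ had 11.6% (426 of 3689 reads, 95% exact interval 10.5 to 12.6), MS4A3 11.7% and RNASE2 12.3%. SRGN stood apart from the rest with 30.7% (9431 of 30703 reads), and 26.3% of genes were below it. In all, 8 of the 9 granule genes with enough reads lay under 17.3%, the share below which 10% of all genes fell. MPO had 4 labelled of 19 reads and was not tested. Without 4sU the 10 genes had 0 labelled reads in each case, which allows a share of up to 0.0265% for SRGN (11335 reads), 0.276% for ELANE, 2.26% for LYZ (133 reads) and 42.9% for MPO (7 reads). Intervals and limits here cover counting error only, since each condition had 1 library. The reads also carry no molecular identifiers.

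**Figure D2:**
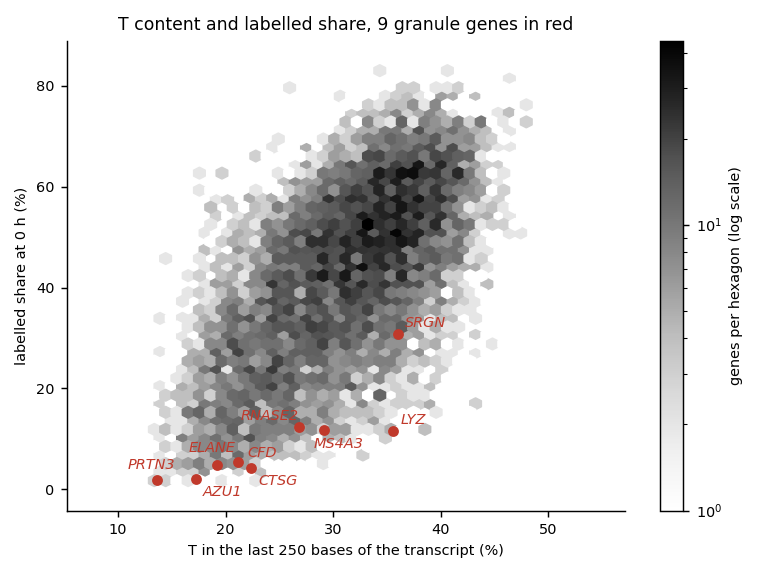
The labelled share at 0 h (vertical, percent) is plotted against the share of T in the last 250 bases of the annotated transcript (horizontal, percent) for 9398 genes, as hexagons shaded by the number of genes on a log scale, with 9 granule genes in red. PRTN3, AZU1 and ELANE lie at the low end of both, and LYZ and SRGN do not lie at the low end of T content.

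The label is read at T positions, and the ends of the transcripts of the serine protease family hold few of them. T made up 13.6% of the last 250 bases of PRTN3, 17.2% of AZU1, 19.2% of ELANE, 21.2% of CFD and 22.4% of CTSG, against a median of 31.6% over all genes tested. By contrast RNASE2 had 26.8%, MS4A3 29.2%, LYZ 35.6% and SRGN 36.0%. Across the 9398 genes with both values, which share libraries and are not independent, T content and labelled share at 0 h had a Spearman's rho of 0.58. The part of T content in the low share of this family was not tested. LYZ is the case in which a low share goes with many T: 68.9% of genes had fewer T, and 4.83% had a lower share.

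The labelled share of most granule genes was not called lower over 12 h of chase. In edgeR's quasi-likelihood fit of labelled counts offset by the gene's own total, adjusted over 9402 genes, 95.3% of all genes were called lower. Of the granule genes 9 of 10 passed the filter, 2 were called lower (RNASE2 and SRGN) and 7 were not called in either direction. The median change was -0.28 log2 over 12 h for the 9 genes and -4.66 for all genes. At 8 h the median granule gene retained 106% of the labelled share pooled from the first 3 libraries (0 to 40 min), where the median of all genes retained 14.1%. At 12 h these values were 87.2% and 3.14%. A p above the threshold does not show that a share stayed the same, and the intervals of the low shares are wide.

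**Figure D3:**
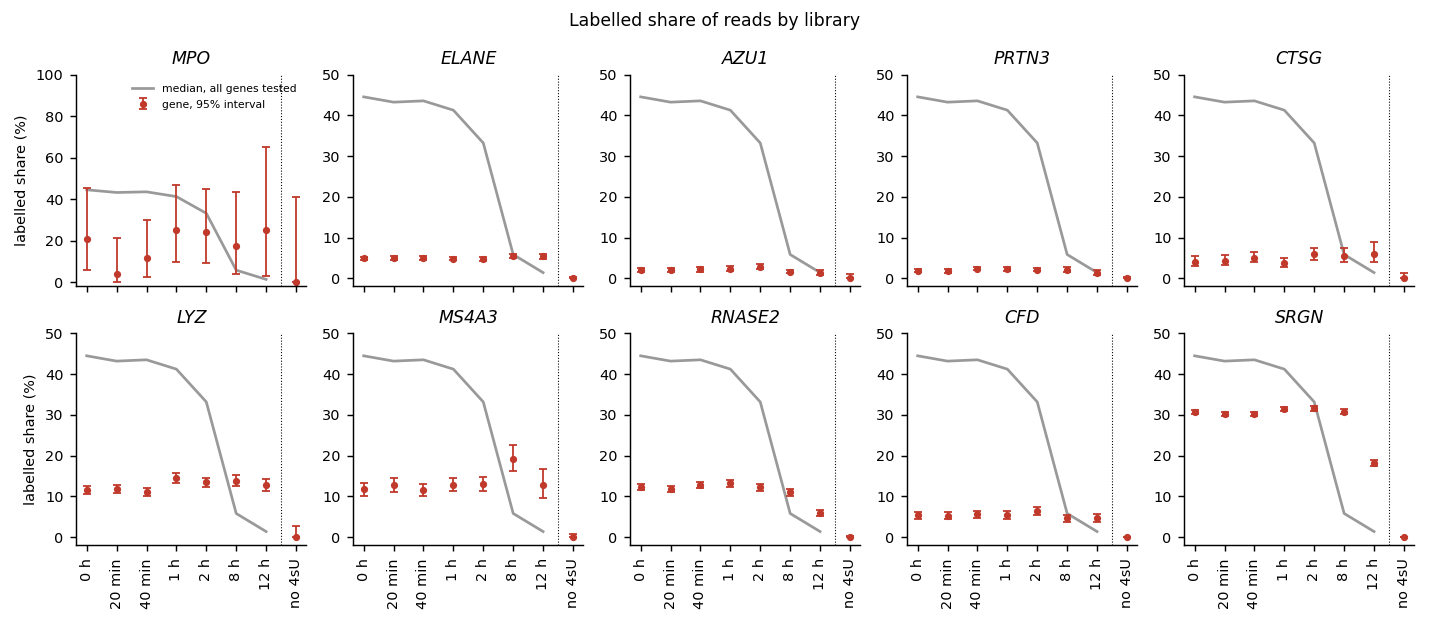
Points give the labelled share of reads (percent) of each granule gene by library with 95% exact binomial intervals, and the grey line is the median of all genes tested; times are spaced evenly, and the MPO axis runs to 100%. The grey line stands at 44.5% at 0 h and 5.83% at 8 h, while ELANE stays between 4.69% and 5.55%.

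ELANE gives the best measured of the flat shares. It had 4.87%, 4.94%, 5.02%, 4.85%, 4.69%, 5.55% and 5.42% labelled reads at the 7 times, and the 95% exact intervals of all 7 libraries overlapped that of the 12 h library (4.85 to 6.05). Its change was 0.19 ± 0.21 log2 over 12 h (adjusted p = 0.373, edgeR). LYZ had 11.6%, 11.8%, 11.2%, 14.5%, 13.5%, 13.8% and 12.8%, with a change of 0.12 ± 0.23 log2 (adjusted p = 0.604, edgeR). CTSG had 6.05% at 12 h, from 25 labelled reads, and 4.10% at 0 h (0.47 ± 0.33 log2, adjusted p = 0.165, edgeR). CFD had 4.71% at 12 h and 5.34% at 0 h (-0.28 ± 0.26 log2, adjusted p = 0.299, edgeR). PRTN3 had 1.38% at 12 h and 1.87% at 0 h (-0.29 ± 0.32 log2, adjusted p = 0.39, edgeR). Those 3 shares rest on 20 to 151 labelled reads a library. AZU1 lay next to the threshold, with 22 labelled of 1641 reads at 12 h and 54 of 2808 at 0 h, a change of -0.69 ± 0.33 log2 (adjusted p = 0.051, edgeR). Without the 0 h library it passed (adjusted p = 0.0281, edgeR).

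MS4A3 had its highest labelled share at 8 h. Its labelled share was 11.7%, 12.8%, 11.5%, 12.9%, 13.0%, 19.3% and 12.8% through the chase. The 8 h value, 120 of 623 reads (95% exact interval 16.2 to 22.6), lay above the intervals of the first 5 libraries and overlapped that of the 12 h library (9.51 to 16.7). Over 12 h the change was 0.42 ± 0.29 log2 (adjusted p = 0.168, edgeR), and without the 12 h library it was called higher at 1.05 ± 0.33 (adjusted p = 0.00657, edgeR). Without the 8 h library, which held the high share, it was 0.07 ± 0.31 (adjusted p = 0.816, edgeR).

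RNASE2 and SRGN were the 2 genes called lower, and their shares were lowest at 12 h. SRGN had 30.7%, 30.2%, 30.4%, 31.5%, 31.6%, 30.8% and 18.2% labelled reads, so that the first 6 libraries lay close together and the 12 h library was far below. RNASE2 was likewise lowest at 12 h, with 12.3%, 11.8%, 12.8%, 13.2%, 12.2%, 11.1% and 5.95%. The declines were -0.56 ± 0.15 log2 for SRGN (adjusted p = 0.00133, edgeR) and -0.86 ± 0.24 for RNASE2 (adjusted p = 0.00173), and both calls rest on the 12 h library. Without it the change of SRGN was 0.02 (edgeR adjusted p = 0.880), that of RNASE2 was -0.26 (adjusted p = 0.270), and 0 of the 9 genes were called lower. Over all genes 8520 were called lower without that library, against 8962 of 9402 with it. The fitted half-life of the labelled share was 16.5 ± 5.17 h (SE) for RNASE2, the 1 granule gene with a resolved value, and 47.4 h without the 12 h library. Fitted to labelled CPM, which also follows the fall in total level, it was 6.32 ± 0.45 h. The share of SRGN gave 29.5 h, past the limit of 24 h set for a resolved value. Without the 8 h library it was 16.7 h, within that limit, and without the 12 h library the fit ran to its bound of 1000 h. No half-life of the labelled share of SRGN can therefore be given. Fitted to labelled CPM, the half-life of SRGN was 5.95 ± 0.40 h. The median of 8832 resolved genes, from the labelled share, was 2.72 h.

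Labelled and unlabelled reads of the granule genes were both lower late in the chase. Scaled as CPM with TMM factors, labelled reads were called lower in 9 of 9 granule genes, as in 98.5% of all genes. The extent differed: the median change of labelled CPM was -1.35 log2 over 12 h for the 9 genes and -4.43 for all genes. Unlabelled reads had no test. In CPM without TMM factors, the median granule gene had at 8 h 55.1% of its unlabelled CPM of the first 3 libraries, and the median of all genes 194%.

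**Figure D4:**
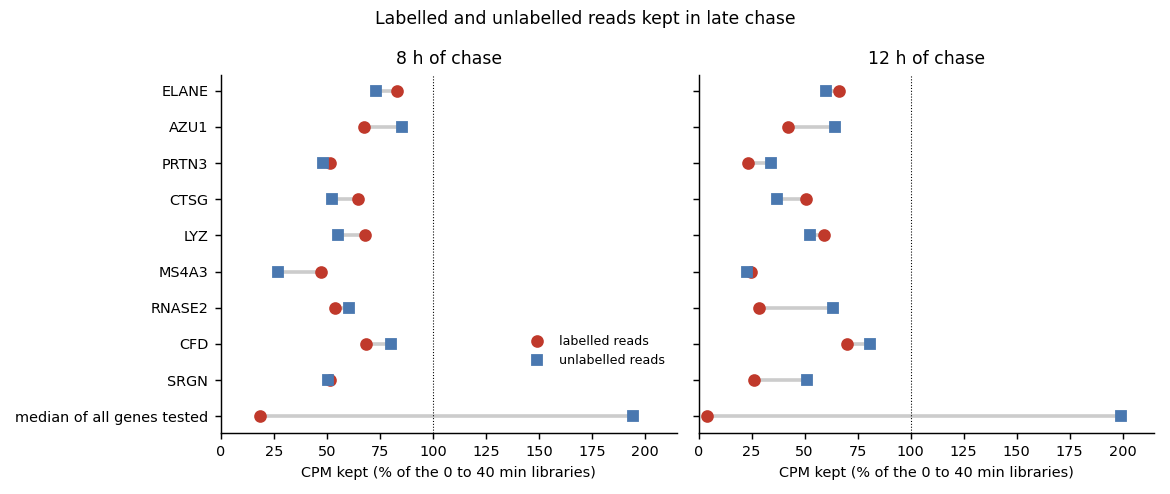
Each row shows the labelled (circles) and unlabelled (squares) CPM kept at 8 h and 12 h, with the median of all genes tested in the last row. Values are percentages of the 0 to 40 min libraries, in CPM without TMM factors. In 9 of 9 granule genes both kinds of read lie below 100% at both times. The unlabelled reads of the median gene lie at 194% and 199%.

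The loss differed between the granule genes. At 12 h MS4A3 kept 24.6% of its labelled and 22.8% of its unlabelled CPM, and PRTN3 23.2% and 34.1%. CFD kept the most, 69.9% and 80.7%. ELANE was next in labelled CPM with 66.0% (unlabelled 59.9%), and AZU1 next in unlabelled CPM with 64.3% (labelled 41.9%). In RNASE2 and SRGN the 2 kinds of read differed at 12 h. The labelled CPM of SRGN was 51.3% of its early value at 8 h and 25.9% at 12 h, while its unlabelled CPM was 50.3% and 51.0%. For RNASE2 labelled CPM was 53.7% and 28.6%, and unlabelled CPM 60.6% and 63.4%. Unlabelled reads hold RNA from before the pulse, RNA made after the wash and labelled RNA in which no change was read, and these cannot be told apart here.

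By the pattern of the labelled share over the 7 chase libraries, the genes nearest to ELANE among 6311 others with a mean of at least 200 reads were the ribosomal protein genes RPL8, RPL39 and RPL18, with root mean square differences of 0.34, 0.47 and 0.50 percentage points. Nearest to SRGN were STMN1, ATP5F1B and NDUFC2 (1.23, 1.52 and 1.66 points), and nearest to RNASE2 were EIF3I, NDUFB9 and CD37 (0.87, 0.87 and 0.90 points). In total level 7 of these 9 genes were called lower, by 0.30 to 0.71 on the log2 scale, where 23.9% of all genes were. The 9 genes were picked by labelled share, and a link to total level was not tested. RPL39 and CD37 were not called (edgeR adjusted p = 0.988 and 0.649).

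Set against cells without 4sU, the granule genes did not stand on one side. Of the 9 genes with enough reads, 4 were at least 2-fold higher at 0 h (LYZ, ELANE, AZU1 and RNASE2) and 1 was at least 2-fold lower (CFD), where 19.4% of all genes were higher and 18.0% lower by that much. For scale, 0.306% of genes were 2-fold higher and 0.201% lower between the 20 min and the 0 h library. LYZ had 424 CPM at 0 h and 45.6 CPM without 4sU, a ratio of 9.29 (95% exact interval 7.81 to 11.1). ELANE had 1211 CPM at 0 h and 374 without 4sU, a ratio of 3.24 (3.05 to 3.45). AZU1 had 322 and 117 CPM (2.75), RNASE2 800 and 359 (2.23) and PRTN3 553 and 311 (ratio 1.78). These are differences between single libraries, and their intervals cover counting error only.

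CFD went the other way, with 282 CPM at 0 h and 819 CPM without 4sU, a ratio of 0.344 (0.325 to 0.364). SRGN (3525 and 3887 CPM) and MS4A3 (197 and 149 CPM) differed by less than 2-fold, as did CTSG (137 and 106 CPM). After 12 h of chase the picture had shifted with the fall in total level. LYZ at 230 CPM was still 5.04 times its level without 4sU, and ELANE at 680 CPM was 1.82 times. Below the level without 4sU at 12 h were PRTN3 (ratio 0.562), CTSG (0.470), SRGN (0.390), MS4A3 (0.292) and CFD (0.272). At that time 4 granule genes were at least 2-fold lower and 1 at least 2-fold higher than without 4sU, against 10.7% and 20.3% of all genes.

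**Figure D5:**
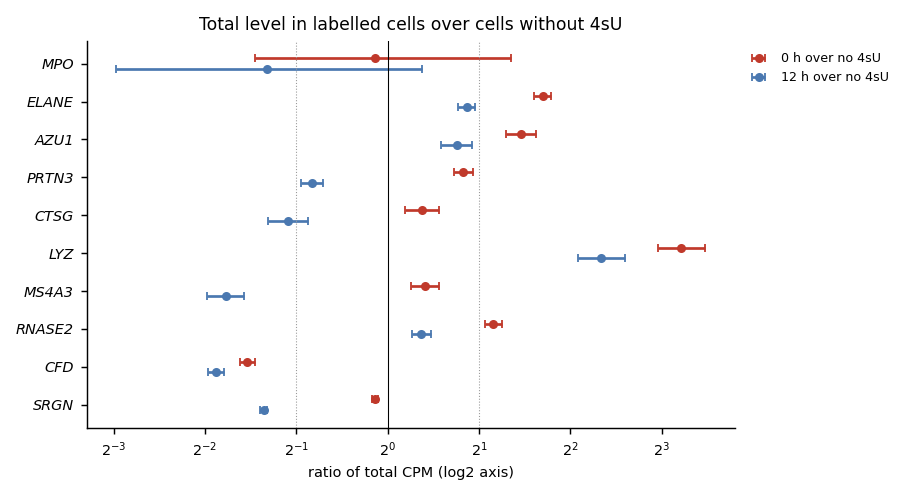
Points give the ratio of total CPM at 0 h (red) and 12 h (blue) over the library without 4sU on a log2 axis, with 95% exact counting intervals; dotted lines mark 2-fold. At 0 h and 12 h LYZ lies at 9.29 and 5.04, CFD at 0.344 and 0.272, and PRTN3 at 1.78 and 0.562.

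The library without 4sU stood apart in monocyte markers as well. The 12 markers summed to 2306 CPM at 0 h and from 2160 to 2634 CPM over the chase, against 579 CPM without 4sU, and 12 of 12 were higher at 0 h, by 1.51 to 14.6-fold. Of the 5 eosinophil and basophil markers, PRG2 had 40.9 CPM at 0 h and 1.37 CPM without 4sU, and the sum was 42.4 and 1.37 CPM, with CPA3 at 0; RNASE2 is also an eosinophil protein. Of late neutrophil granule markers, the sum was at most 1.13 CPM in the chase and 0.343 CPM without 4sU. Lymphoid markers summed to 0.838 to 2.95 CPM in the chase and 7.20 CPM without 4sU, erythroid markers to at most 1.69 and 0 CPM, and epithelial markers to at most 0.689 and 0 CPM. LYZ is itself one of the 12 monocyte markers. The part of these marker differences in the ratios of the granule genes was not tested, and 4sU and handling cannot be told apart here.

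Within 100000 bases of the chromosome 19 cluster lay 6 other genes with reads. The labelled share was called lower in 3 of the 3 that could be tested (PTBP1, MED16 and R3HDM4), as in 95.3% of all genes. In total level 2 of 4 were called lower and 1 higher, against 23.9% and 27.4% of all genes. The same 4 genes lay on both sides in the ratio of 0 h over no 4sU. It was 0.105 for PLPPR3 (26.3 CPM at 0 h and 250 CPM without 4sU), which was named after its values were seen. The ratio was 0.565 for R3HDM4, 1.12 for MED16 and 1.13 for PTBP1.

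Other genes of the granule pathway were read from lists, whose counts stand against 95.3% of all genes with lower label and 23.9% lower or 27.4% higher in total level. Of 12 further primary granule contents 4 had enough reads for the total level, and 2 of them were called lower and 0 higher. Their most abundant gene was CD63, a tetraspanin of the granule membrane, with 891 CPM at 0 h and a change of total level of -0.12 ± 0.07 log2 (adjusted p = 0.211, edgeR). Its labelled share was 9.08% at 12 h and 10.5% at 0 h (edgeR adjusted p = 0.199). Label was called lower in 0 of the 3 genes of this list that could be tested. Besides CD63 these were RNASE3, at -1.02 ± 0.52 log2 over 12 h, and PRG2, at -1.16 ± 1.07 (edgeR adjusted p = 0.064 and 0.295). Both errors are wide, so the lack of a call does not show that label was kept. RNASE3 encodes the eosinophil cationic protein and is a close relative of RNASE2; it was chosen after its values were seen. It had 23.6 CPM at 12 h and 38.2 CPM at 0 h, and its total level fell by 0.76 on the log2 scale (adjusted p = 0.0016, edgeR). The sources used here do not state how reads matching both copies were assigned, so both values are uncertain to that extent.

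Contents of later granules did not move as 1 group. Of 15 genes 6 could be tested for total level, of which 2 were lower and 3 higher, and label was lower in 4 of 5. CHI3L1, a chitinase-like protein of specific granules, was the most abundant at 3226 CPM at 0 h and 619 CPM without 4sU. Its total level changed by -0.70 ± 0.09 log2 (adjusted p = 8.47e-05, edgeR) and 7.71% of its reads were labelled at 0 h. CYBB, the catalytic subunit of the phagocyte NADPH oxidase, rose by 1.21 ± 0.11 log2 (adjusted p = 1.19e-05, edgeR), and its labelled share had a half-life of 4.00 ± 0.35 h.

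Genes that fold, activate or package granule proteins were called lower in labelled share in 8 of 9 cases, near the 95.3% of all genes. Total level was lower in 3 of 9 and higher in 1, against 23.9% and 27.4% of all genes. CANX, a chaperone of the endoplasmic reticulum, had a half-life of 22.0 ± 5.02 h and LYST, the lysosomal trafficking regulator mutated in Chediak-Higashi syndrome, 2.02 ± 0.23 h. Protease inhibitors of a further list, which includes inhibitors of cysteine proteases, were called lower in labelled share in 4 of 6 cases. In total level 3 of 6 fell while 0 rose, to be read against the same shares of all genes. CSTA, the cysteine protease inhibitor stefin A, had 404 CPM at 0 h and a total change of -0.55 ± 0.07 log2 (adjusted p = 9.58e-05, edgeR). The half-lives of SERPINB8 and CSTB were 3.03 ± 0.61 h and 12.7 ± 2.42 h.

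For transcription factors of the granule genes, label was called lower in 11 of 11, where 95.3% of all genes were. Their median half-life was 1.84 h, against 2.72 h for all resolved genes, a difference that was not tested. Total level was higher in 7 of 12 and lower in 1, against 27.4% and 23.9% of all genes. At 0 h 2 of 12 were at least 2-fold higher than without 4sU and 6 at least 2-fold lower. Of all genes 19.4% were higher and 18.0% lower by that much. CEBPA, which is needed to form granulocyte and monocyte progenitors, had 296 CPM at 0 h and 2587 CPM without 4sU, and its label had a half-life of 1.95 ± 0.43 h. GFI1, a repressor required for granule formation in neutrophils, had 25.8 CPM at 0 h and 485 CPM without 4sU. During the chase its total level rose by 1.81 ± 0.13 log2 (adjusted p = 2.65e-06, edgeR). CBFB, the partner subunit of RUNX1, had the longest half-life of the list, 5.26 ± 0.73 h.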

How the data were processed

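The deposited files hold raw read counts per 3′ UTR segment for 8 libraries (QuantSeq 3′ FWD), 1 table of all reads and 1 of reads the authors called nascent, per the file headers. Per the submitters' processing notes, bcl2fastq 2.17.1.14 and Trim Galore 0.6.5 were used with builds hg19 and dm3. The sources used here name no aligner, counter or number of T-to-C changes that makes a read nascent, and the Drosophila S2 spike-in was not used.

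Of 56570 transcripts 84.9% were named through GENCODE 29, used for names and T content only, and 5.65% of counts stayed unnamed. Segments on alternative or unplaced sequences (3056) and 85 genes with counts equal to another gene were left out. The segment with most reads stood for each gene. The granule genes, the marker lists and the pathway lists were chosen with earlier results of these data known. All granule genes are named; of each list the most abundant gene and those with the shortest and longest resolved half-life are named.

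CPM is scaled to all gene reads of a library. Label decline was tested with edgeR 4.0.16 (R 4.3.3, glmQLFit and glmQLFTest) on labelled counts over time, with each gene's log total as the offset, for genes with a mean of at least 50 reads and at least 20 labelled reads. For total level the counts of all reads were scaled with TMM, and a gene needed a mean of 20 reads or more. Both fits used the 7 chase libraries, left 5 residual degrees of freedom, and called genes at an adjusted p (Benjamini-Hochberg) under 0.05. Half-lives came from a binomial fit of the labelled share, and were resolved where the decline was called, at least 10 labelled reads above background were fitted at 0 h, the log rate had an SE of at most 0.5 and the value between 0.25 and 24 h. Ratios between single libraries have exact 95% counting intervals and no test. A limit for 0 labelled reads is 3 reads of the total. The scripts were tested on simulated data.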

Additional observations from a re-analysis of the deposited data

How the results depend on the processing

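No paired analysis was possible because each condition had 1 library. With labelled CPM (TMM) in place of the labelled share, 9 granule genes were called lower, and the change turned negative for ELANE (-0.65), CTSG (-1.138), LYZ (-1.05) and MS4A3 (-2.15). With the 0 to 2 h libraries alone, the label fit called 2998 genes and 0 granule genes lower, against 8962 and 2 with all 7 libraries. Changes turned round for ELANE (-0.42 ± 0.62), AZU1 (3.42 ± 1.36), PRTN3 (1.20 ± 1.21), RNASE2 (0.21 ± 0.51), CFD (1.68 ± 0.97) and SRGN (0.37 ± 0.25). None of these was called, and they are slopes within 2 h scaled to 12 h, not changes that were seen. The total fit then called 112 genes lower, 439 higher and 3 granule genes lower, against 2544, 2919 and 10 with all 7 libraries. MPO was at 1.137 ± 2.51 on the same scale and was not called. With the 1 to 12 h libraries alone LYZ was at -0.13 in the label fit. Leaving out 1 library at a time gave 0 to 3 granule genes with lower label, the 0 without the 12 h library. Of all genes 8520 to 8990 had lower label in these fits, against 8962 of 9402 with all 7 libraries. Over these fits PRTN3 lay between -0.54 and 0.16 and SRGN between -0.79 and 0.015. For total level, 9 to 10 granule genes were lower. The cause of these shifts was not tested. Depth limits MPO most, with 8 to 26 reads in the chase libraries.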
